A study of Mus musculus with 13 samples.

Results

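Mitochondrial ribosomal protein genes encode the protein part of the mitochondrial ribosome, and 77 of them were measured in mouse plasma cells and plasma cell tumours. They were taken as the gene symbols Mrpl or Mrps followed by a number (with or without a letter a to c) that had 10 or more counts in 2 or more libraries. Such a name was found for 78 of the 22997 symbols counted, and 1 of these, Mrpl53, was left out with at most 3 counts in any library. By structures of mammalian mitochondrial ribosomes, 50 of the products belong to the large subunit (Mrps18a and Mrps30 among them, despite their names) and 26 to the small subunit. The product of Mrps36 is now placed in the 2-oxoglutarate dehydrogenase complex and not in the ribosome. Of the ribosomal members, 46 have a counterpart in bacterial ribosomes and 30 are specific to mitochondria.

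Each library came from 50000 cells sorted as CD138+, B220- and CD45.2+ from bone marrow of mice on a C57/BL6 background. The VQ group comprised 5 libraries of recipients of Vκ*MYC; Nras LSL Q61R/+; IgG1-Cre cells, with 2 from line D1, 1 from line D4 and 2 from line D5. The tVk12653 group comprised 2 recipients of a single transplantable line. The V group comprised 3 Vκ*MYC; IgG1-Cre mice and the WT group 3 wild-type mice. The Vκ*MYC transgene expresses human MYC after somatic hypermutation in germinal centre B cells, and IgG1-Cre acts in B cells that switch to IgG1, where it can remove the stop cassette (LSL) before mutant Nras. Cells of VQ and tVk12653 were taken from recipients and those of V and WT were not, so effects of genotype and of transplantation cannot be told apart.

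The mitochondrial ribosome translates the few proteins encoded by mitochondrial DNA, which are core subunits of the respiratory chain and of ATP synthase. Its RNAs are made in the mitochondrion, whereas all of its proteins are encoded in the nucleus, translated in the cytosol and imported. Many nuclear genes for mitochondrial proteins are known targets of the factors NRF1, GABP (an ETS factor) and YY1, and MYC is known to promote mitochondrial biogenesis. Plasma cells need mitochondria to feed antibody secretion, and myeloma is a tumour of plasma cells.

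Libraries held 2096815 to 8512281 counts, of which 4144 to 27653 fell on the 77 members, and no member was at 0 in any library. The plasma cell marker list summed to 5414 to 8716 CPM (read counts scaled to a common library size with TMM factors) in VQ, 8787 to 12611 CPM in tVk12653, 42698 to 63665 CPM in V and 38594 to 71985 CPM in WT, with none of its 8 genes at 0 throughout a group. In V and WT these sums were mostly Jchain, the joining chain of secreted antibody, at 33543 to 64456 CPM in WT. In VQ they were not, with Jchain at 44.5 to 1509 CPM and Irf4 at 1511 to 2417 CPM. Of the 8 genes 2 were lower in VQ than in WT and 0 higher (edgeR), with a median log2 fold change of -0.59. Neutrophil markers, a sign of other marrow cells in the sort, summed to 71.4 to 1246 CPM in VQ, 90.2 to 156 CPM in tVk12653, 1833 to 3677 CPM in V and 3389 to 9318 CPM in WT. The erythroid list reached at most 27.7 CPM in VQ and 998 CPM in WT, and the B cell list at most 215 CPM in VQ and 924 CPM in WT. In these bulk libraries fewer cells of a type and less RNA per cell cannot be told apart. The monocyte list summed to 8.21 to 1548 CPM in VQ, 886 to 1205 CPM in tVk12653, 509 to 1457 CPM in V and 519 to 1803 CPM in WT, so its ranges overlap. In D1, D4 and tVk12653 the sum was mostly Ly6c2, at 501 to 1541 CPM in D1 and D4 and 877 to 1197 CPM in tVk12653. Of the 6 monocyte genes tested 4 were lower in VQ than in WT and 0 higher (edgeR), with a median log2 fold change of -4.38. For 5 of them every VQ library was below every WT library. The part of these other cells in the differences of the members was not tested, and counts without the VQ and WT libraries of most neutrophil RNA are given beside the results.

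The promoters of 4 members are shown because their genes stand at the ends of the pattern described below. Mrpl12 and Mrpl37 had the largest increases in VQ over WT, Mrpl17 the largest in tVk12653 over WT, and Mrps18c the lowest value in VQ over WT. The sequences are from RefSeq, build GRCm38.p6, 5′ to 3′ on the strand of the gene, from 250 bases before to 50 bases after its start. Capitals mark matches on either strand to the letters CACGTG (an E-box, the motif bound by MYC with MAX), CGCATGCG (core of the NRF1 motif), CCGGAAG (core of the ETS motif) and AAGATGGC (core of the YY1 motif). No 2 of these motifs share bases in the windows shown.
Mrpl12, chr11:120484387-120484686, plus strand: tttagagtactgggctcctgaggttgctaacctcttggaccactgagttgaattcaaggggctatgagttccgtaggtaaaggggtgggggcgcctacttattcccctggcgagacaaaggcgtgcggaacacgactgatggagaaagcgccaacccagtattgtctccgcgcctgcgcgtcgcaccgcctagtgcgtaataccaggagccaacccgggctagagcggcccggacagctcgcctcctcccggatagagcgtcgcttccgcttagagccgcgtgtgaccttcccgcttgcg
Mrpl37, chr4:107066817-107067116, minus strand: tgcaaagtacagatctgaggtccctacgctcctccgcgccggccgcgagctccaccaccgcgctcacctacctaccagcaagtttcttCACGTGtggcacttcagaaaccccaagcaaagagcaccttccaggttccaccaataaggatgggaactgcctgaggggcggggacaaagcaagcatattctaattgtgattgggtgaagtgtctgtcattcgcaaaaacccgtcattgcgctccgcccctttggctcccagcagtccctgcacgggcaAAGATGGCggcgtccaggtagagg
Mrpl17, chr7:105811038-105811337, minus strand: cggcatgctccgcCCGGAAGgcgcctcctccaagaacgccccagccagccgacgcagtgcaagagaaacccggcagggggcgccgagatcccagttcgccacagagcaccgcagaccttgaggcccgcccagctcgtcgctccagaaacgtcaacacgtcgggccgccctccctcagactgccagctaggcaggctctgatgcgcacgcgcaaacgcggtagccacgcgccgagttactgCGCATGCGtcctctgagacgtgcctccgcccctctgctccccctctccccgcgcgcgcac
Mrps18c, chr5:100798509-100798808, plus strand: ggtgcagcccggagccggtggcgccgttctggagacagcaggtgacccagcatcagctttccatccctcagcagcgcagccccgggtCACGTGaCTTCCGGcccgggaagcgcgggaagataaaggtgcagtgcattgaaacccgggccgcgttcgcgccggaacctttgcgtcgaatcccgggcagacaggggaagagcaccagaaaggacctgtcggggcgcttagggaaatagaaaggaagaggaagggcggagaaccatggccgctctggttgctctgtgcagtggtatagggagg

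The Mrpl12 window held none of these letters. Mrpl37 had an E-box with its first base at position -162, counted so that the gene starts at position 1, and the YY1 letters at position 27, inside the gene. Mrpl17 had the NRF1 letters at position -10 and the ETS letters at -237. Mrps18c had an E-box at -163 followed closely by the ETS letters at -156.

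A RefSeq promoter was at hand for 68 of the 77 members, and matches were counted in these and in the promoters of 27025 genes, those of chromosome 18 left out. The E-box was in the promoters of 5 members (Mrpl2, Mrpl20, Mrpl36, Mrpl37 and Mrps18c), or 7.35%, against 8.09% of all promoters. The ETS letters were in 25 members (36.8%) against 9.93% of all promoters, the YY1 letters in 12 (17.6%) against 3.19% and the NRF1 letters in 7 (10.3%) against 2.07%. Among genes expressed enough to be tested the shares were 12.1% for the E-box, 20.9% for ETS, 5.47% for YY1 and 4.43% for NRF1. Among members that rose in VQ over WT and members that did not pass, the ETS letters were in 13 of 35 and 12 of 33, the YY1 letters in 6 of 35 and 6 of 33, the NRF1 letters in 3 of 35 and 4 of 33, and the E-box in 3 of 35 and 2 of 33, with no test of the difference. A match is a description of these letters only. Mrps11 and Mrpl46, which encode a small and a large subunit protein, lie head to head on chromosome 7 and their windows share 141 bases.

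Summed over the 77 members, expression was highest in line D5, lower in the other tumour libraries and lowest in WT. The sum was 2852 and 3004 CPM in line D1, 3257 CPM in line D4, and 3955 and 4183 CPM in line D5. It was 2802 and 2898 CPM in tVk12653, 2043, 2302 and 2076 CPM in V, and 1876, 1820 and 1872 CPM in WT. All 7 tumour libraries stood above all 3 V libraries, and these above all 3 WT libraries. The mean was 3418 ± 587 CPM over the 3 VQ lines, 2850 ± 68.2 CPM over the 2 tVk12653 libraries, 2140 ± 141 CPM in V and 1856 ± 31.2 CPM in WT (SD, n = 3 for V and for WT).

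**Figure D1:**
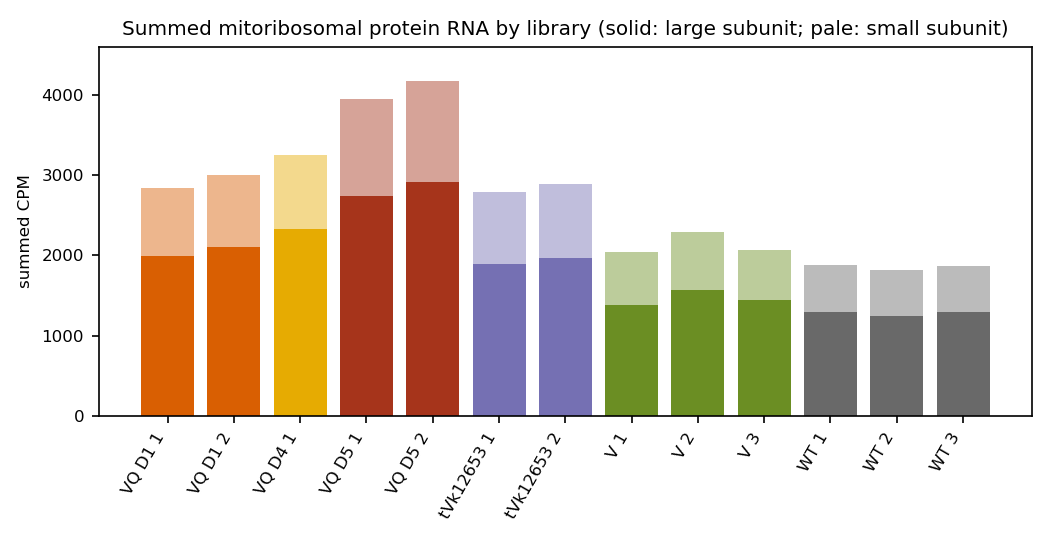
Summed CPM (vertical axis, from 0) of mitoribosomal protein genes in each of the 13 libraries (horizontal axis), split into large subunit (solid) and small subunit (pale). The D5 bars stand highest and the 3 WT bars lowest. With Mrps36, which is not drawn, the sums are 3955 and 4183 CPM in D5 and 1820 to 1876 CPM in WT.

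Both subunits took part. Large subunit members summed to 2402 ± 395 CPM over the VQ lines and 1281 ± 26.9 CPM in WT, and small subunit members to 1012 ± 196 CPM in VQ and 572 ± 6.52 CPM in WT (SD, n = 3 each). The ratio of the large to the small sum was 2.25 to 2.52 in VQ, 2.10 to 2.11 in tVk12653, 2.12 to 2.29 in V and 2.21 to 2.26 in WT, so the VQ and WT ranges overlap.

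Per kilobase of exon the members differed widely in level, with a range of 3.03 to 145 CPM per kb and a median of 18.6 CPM per kb over all libraries. The highest were Mrpl52, Mrpl54 and Mrps24, and the lowest were Mrps6, Mrpl47 and Mrpl1. Lengths are those of all annotated exons merged, with 3364 bases for Mrpl47 and 4295 for Mrpl1. By mean CPM alone Mrpl47 (14.5) and Mrpl1 (18.9) stood above Mrps36 (4.67) and Mrpl27 (4.79). Mrps6 shares exon sequence on its own strand with Slc5a3, so its level is uncertain. The rank order of the members was alike in V and WT (Spearman's rho 0.97 over 77 genes, as a description). It was least alike in D5 and WT (0.80), with nearly the same values for D5 and tVk12653 (0.80) and for D5 and V (0.81).

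VQ was compared with WT to set tumours carrying the MYC transgene and mutant Nras against healthy plasma cells. Of the 77 members 41 rose in VQ and 0 fell (edgeR quasi-likelihood test with Benjamini-Hochberg adjustment over 11933 genes, adjusted p under 0.05). Among all genes tested 17.3% rose and 15.1% fell. The log2 fold change was above 0 for 74 members, with a median of 0.87 against 0.08 over all genes. In 49 members every VQ library stood above every WT library, which held for 17.7% of all genes tested. The members that rose were 25 of 50 in the large and 16 of 26 in the small subunit. In the large subunit they were 17 of 30 with a bacterial counterpart and 8 of 20 specific to mitochondria, and in the small subunit 8 of 16 and 8 of 10. The differences between these shares were not tested. The share that passed was larger at higher expression, with 7 of 26 members in the lowest tertile by mean CPM, 15 of 26 in the middle tertile and 19 of 25 in the highest tertile.

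Mrpl12, the stalk protein that in human cells also binds mitochondrial RNA polymerase, had the largest increase. It had 58.4 and 75.1 CPM in line D1, 68.7 CPM in line D4, and 177 and 198 CPM in line D5, against 21.5, 21.0 and 26.7 CPM in WT. Every VQ library was above every WT library, and D5 stood highest (log2 fold change 2.31 ± 0.40 (SE), adjusted p = 0.00256). A noncoding gene, Gm16755, overlaps its exons on the opposite strand.

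Mrpl37, a mitochondria-specific protein of the large subunit, had 100.4 and 95.1 CPM in line D1, 128 CPM in line D4, and 190.3 and 186 CPM in line D5, against 42.3, 37.2 and 33.5 CPM in WT. The groups did not overlap, and the D5 libraries were again the highest (log2 fold change 1.93 ± 0.27 (SE), adjusted p = 0.000974). Mrpl30, the counterpart of bacterial L30, had 63.2 and 66.2 CPM in line D1, 112 CPM in line D4, and 111 and 103 CPM in line D5, against 31.3, 29.1 and 22.5 CPM in WT. Here D4 was as high as D5, and all 5 VQ libraries were above WT (log2 fold change 1.83 ± 0.26 (SE), adjusted p = 0.00108). Mrpl9, the counterpart of bacterial L9, had 33.4 and 41.5 CPM in line D1, 51.5 CPM in line D4, and 96.7 and 118 CPM in line D5, against 23.6, 17.0 and 21.9 CPM in WT. It too did not overlap between the groups (log2 fold change 1.73 ± 0.36 (SE), adjusted p = 0.00621), although its exons overlap Oaz3 on the opposite strand.

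Mrpl11, at the base of the stalk that binds translation factors, had 17.8 and 22.4 CPM in line D1, 26.1 CPM in line D4, and 30.7 and 40.9 CPM in line D5, against 9.51, 7.74 and 13.6 CPM in WT. All VQ libraries were above WT (log2 fold change 1.48 ± 0.30 (SE), adjusted p = 0.00567). Mrps22, a mitochondria-specific small subunit protein, had 33.1 and 36.1 CPM in line D1, 17.3 CPM in line D4, and 48.2 and 49.6 CPM in line D5, against 10.2, 16.6 and 12.5 CPM in WT. The D4 library came close to the highest WT library without crossing it (log2 fold change 1.44 ± 0.42 (SE), adjusted p = 0.0269), and the call was lost without WT 1, without WT 3 or when only VQ and WT were fitted. Mrpl17 (log2 fold change 1.54 ± 0.24) and Mrpl35 (1.44 ± 0.23), counterparts of bacterial L17 and L35, complete the 8 members with the largest changes (SE, adjusted p = 0.00148 and 0.00165).

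Mrpl58, a peptidyl-tRNA hydrolase built into the large subunit and known as ICT1, had 62.2 and 60.7 CPM in line D1, 66.3 CPM in line D4, and 66.0 and 73.4 CPM in line D5, against 22.9, 24.3 and 30.4 CPM in WT (log2 fold change 1.40 ± 0.20 (SE), adjusted p = 0.00109). Every VQ library was at least as high as 60.7 CPM, well above the highest WT library. Mrpl45, which in mammals anchors the ribosome to the inner membrane, had a log2 fold change of 1.37 ± 0.28 (SE, adjusted p = 0.00544). Mrps30, a large subunit protein despite its name, and Mrps7, which binds the RNA of the small subunit, had smaller log2 fold changes of 0.86 ± 0.22 (adjusted p = 0.0157) and 0.83 ± 0.27 (adjusted p = 0.0372).

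The 3 members related to bacterial S18 gave different values. Mrps18b, a small subunit protein, had 26.6 and 27.7 CPM in line D1, 31.2 CPM in line D4, and 37.1 and 44.0 CPM in line D5, against 14.8, 10.3 and 13.9 CPM in WT, and it rose with no overlap (log2 fold change 1.40 ± 0.24 (SE), adjusted p = 0.00256). Mrps18a, placed in the large subunit, had 29.3 and 33.3 CPM in line D1, 28.2 CPM in line D4, and 44.8 and 47.3 CPM in line D5, against 23.2, 27.6 and 33.8 CPM in WT, and did not pass (log2 fold change 0.39 ± 0.25 (SE), adjusted p = 0.254). Mrps18c, the small subunit protein in the place of bacterial S18, had 2.15 and 2.82 CPM in line D1, 6.46 CPM in line D4, and 3.97 and 5.37 CPM in line D5, against 5.63, 6.64 and 6.82 CPM in WT. These groups overlapped (log2 fold change -0.43 ± 0.42 (SE), adjusted p = 0.463), and Mrps18c shares exon sequence with Gm43511 on its own strand. The differences between the 3 genes were not tested.

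Mrps18c, Mrpl33 (-0.43 ± 0.30, adjusted p = 0.291) and Mrpl1 (-0.25 ± 0.55, adjusted p = 0.756) were the 3 members with log2 fold changes below 0. Mrpl1, of the stalk from which spent tRNA leaves, had 8.07 and 10.6 CPM in line D1, 8.57 CPM in line D4, and 32.6 and 32.2 CPM in line D5, against 23.2, 17.0 and 23.3 CPM in WT. Its D1 and D4 libraries lay below every WT library and its D5 libraries above, and without line D5 it was the only member to fall in VQ (log2 fold change -1.19, adjusted p = 0.0492). Mrpl36, a late-joining protein of the large subunit, and Mrpl41, a mitochondria-specific one, did not pass (0.56 ± 0.22, adjusted p = 0.0742, and 0.42 ± 0.42, adjusted p = 0.464). Neither did Mrps36, the member outside the ribosome (0.52 ± 0.59, adjusted p = 0.531).

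**Figure D2:**
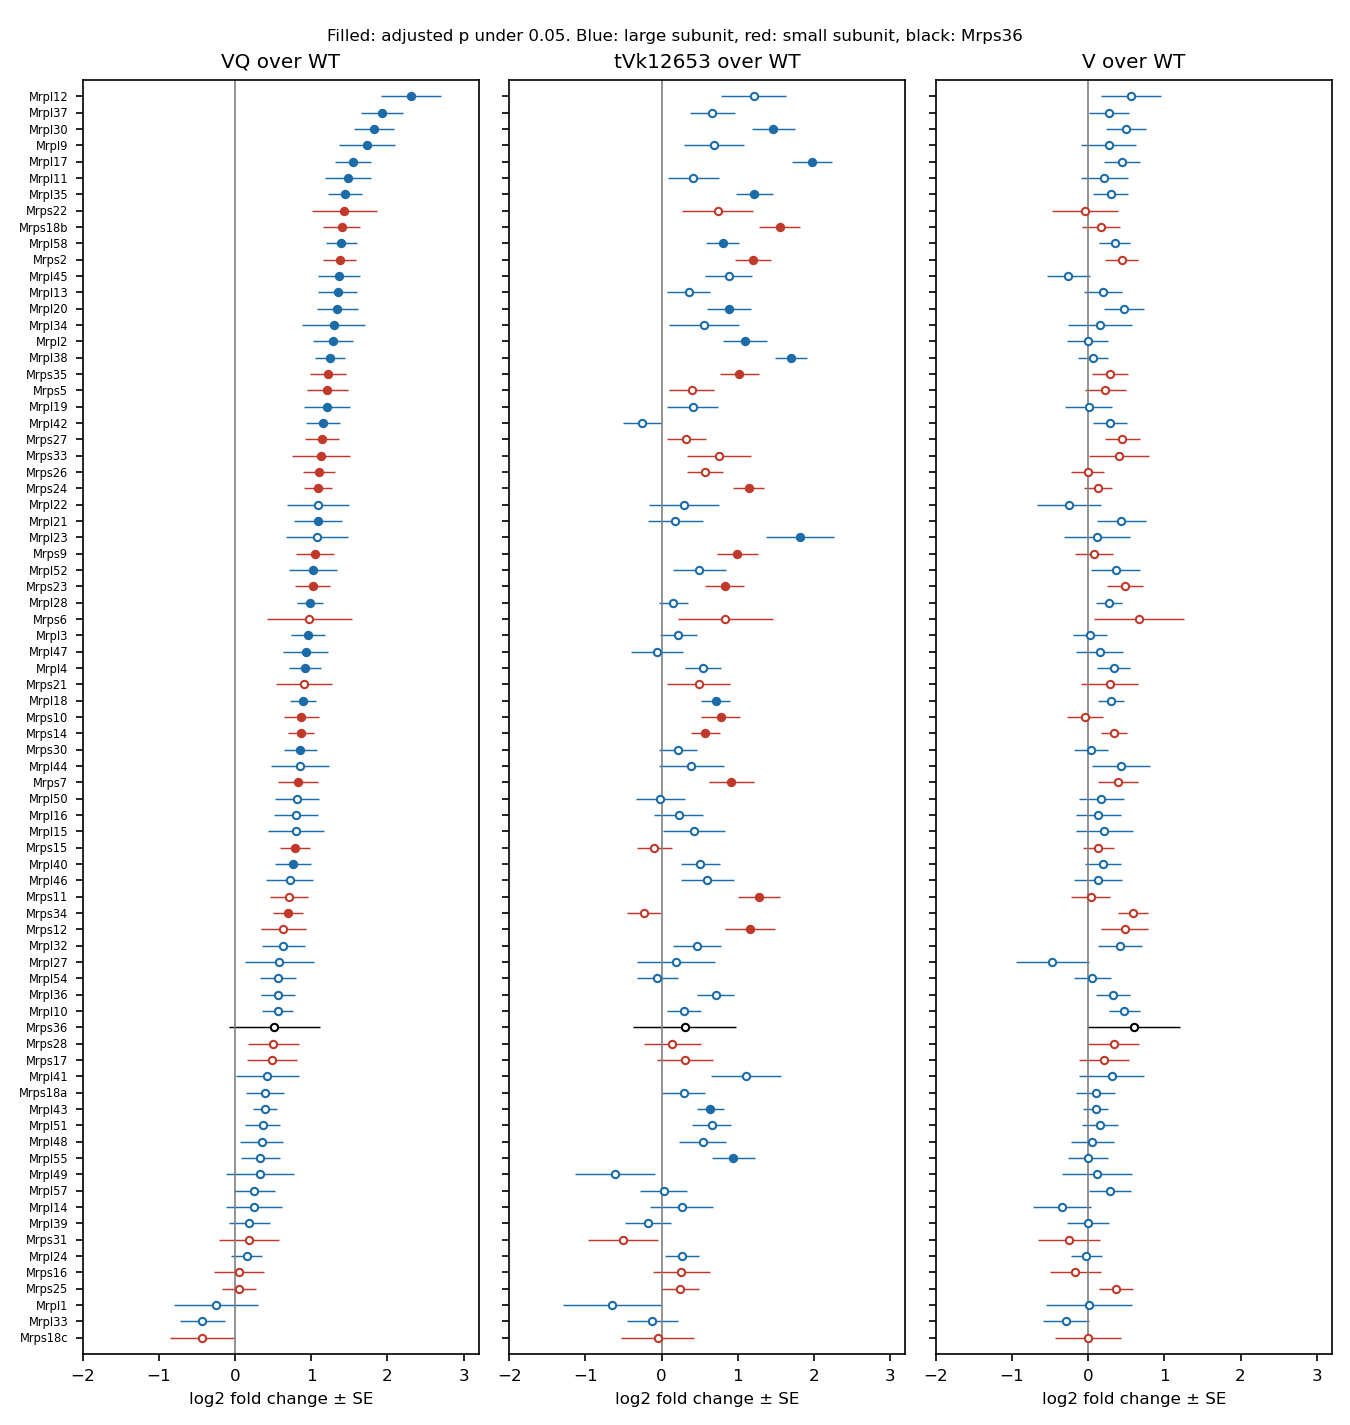
Fitted log2 fold change ± SE (horizontal axis) of each of the 77 members (vertical axis, ordered by VQ over WT) in VQ over WT, tVk12653 over WT and V over WT. Filled points pass an adjusted p under 0.05. They number 41, 22 and 0 in the 3 panels, and 74, 65 and 62 points lie right of 0.

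The count of 41 ranged over 27 to 44 when a WT library or a VQ line was left out, with 27 without WT 3. It was 33 without WT 2 and D1 1, the libraries of most neutrophil RNA within WT and within VQ. Exons of 27 members overlap another gene or have a named pseudogene, and 13 of these rose against 28 of the other 50.

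The comparison of tVk12653 with WT sets a transplanted line that is not labelled with mutant Nras against normal plasma cells. Both tVk12653 libraries are recipients of this 1 line, so the p-values describe this line only. Here 22 members rose and 0 fell (edgeR quasi-likelihood test with Benjamini-Hochberg adjustment), where 12.6% of all genes tested rose and 15.7% fell. The median log2 fold change was 0.50 against -0.05 over all genes, and 65 members were above 0. The members that rose numbered 11 of 50 in the large subunit and 11 of 26 in the small subunit. VQ and tVk12653 are set against the same WT libraries, so the 2 comparisons are not independent.

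Mrpl17 had 138 and 189 CPM in tVk12653, against 52.1, 30.6 and 42.1 CPM in WT. Both tVk12653 libraries were far above WT (log2 fold change 1.97 ± 0.26 (SE), adjusted p = 0.000926). Mrpl38, a mitochondria-specific large subunit protein, had 104 and 98.2 CPM in tVk12653, against 31.3, 29.1 and 32.7 CPM in WT. The WT libraries lay close together and well below (log2 fold change 1.70 ± 0.21 (SE), adjusted p = 0.000772). Mrps18b had 41.1 and 35.1 CPM in tVk12653, against the WT values above, again without overlap (log2 fold change 1.55 ± 0.26 (SE), adjusted p = 0.00304).

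Mrpl23, which lines the exit tunnel, had 14.3 and 9.42 CPM in tVk12653, against 3.17, 2.58 and 4.26 CPM in WT (log2 fold change 1.82 ± 0.45 (SE), adjusted p = 0.0154). Its counts are low and it has a named pseudogene, and the call was lost without tVk12653 1. Mrps12, a protein of the decoding centre, had 44.4 and 33.3 CPM in tVk12653, against 20.4, 12.2 and 19.6 CPM in WT. It rose here (log2 fold change 1.16 ± 0.33 (SE), adjusted p = 0.0271) and did not pass in VQ over WT (0.63 ± 0.30, adjusted p = 0.129), and the direct difference between VQ and tVk12653 did not pass either (-0.52 ± 0.33, adjusted p = 0.312). Leaving out any 1 of the 5 libraries took the count of 22 down to 8 to 12, and leaving out WT 2 and D1 1 took it to 10.

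Between V and WT 0 members passed in either direction with the edgeR quasi-likelihood test, as did 0 genes, or 0%, of the 11933 tested, and 2 members had an unadjusted p under 0.05. DESeq2 called 0 members as well, and 15 genes higher and 30 lower over the whole table. With the replicate number as a block, V and WT fitted by themselves gave 138 genes higher and 341 lower of 10510, and 0 of the 75 members tested, of which 8 had an unadjusted p under 0.05. Fitting all 13 libraries with that block gave 43 genes higher and 48 lower, and 0 of the 77 members, of which 12 had an unadjusted p under 0.05. The median log2 fold change of the members was 0.19 against 0.01 over all genes, and 62 of 77 were above 0. The 2 members with a low unadjusted p were Mrps34, a small subunit protein with 36.5, 45.9 and 34.7 CPM in V, against 25.4, 24.7 and 28.4 CPM in WT, and Mrpl10, of the factor-binding stalk, with 33.5, 34.9 and 31.2 CPM in V, against 23.9, 25.8 and 22.5 CPM in WT. Neither gene overlapped between the groups, with log2 fold changes of 0.59 ± 0.20 and 0.47 ± 0.20 (SE, adjusted p = 0.773 and 0.91). In 10 members all 3 V libraries were above all 3 WT libraries and in 0 they were all below, against 8.97% and 9.46% of all genes tested.

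Against V, the MYC transgenic cells without a labelled Nras mutation, VQ tumours had 32 members higher and 0 lower (edgeR quasi-likelihood test with Benjamini-Hochberg adjustment), where 15.6% of all genes tested were higher and 12.4% lower. The median log2 fold change was 0.65 against 0.08 over all genes. Large subunit members made up 20 of these 32 and small subunit members 12. The largest changes were those of Mrpl12, Mrpl37, Mrpl45 and Mrps22. Mrpl45 had 29.9 and 32.4 CPM in line D1, 31.0 CPM in line D4, and 32.6 and 45.8 CPM in line D5, against 7.40, 13.9 and 12.7 CPM in V. All 5 VQ libraries were far above the highest V library (log2 fold change 1.63 ± 0.28 (SE), adjusted p = 0.00338). Mrpl12 had 31.6, 39.1 and 30.8 CPM in V, below every VQ library (log2 fold change 1.75 ± 0.39 (SE), adjusted p = 0.0103). The count of 32 was 18 without V 1, 16 without V 3, 28 without WT 2 and D1 1, and 14 when only VQ and V were fitted.

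Over the 11933 genes tested, 8.80% had all 7 tumour libraries above all 6 V and WT libraries, and 22 of the 77 members did. These were Mrpl2, Mrpl9, Mrpl12, Mrpl17, Mrpl18, Mrpl19, Mrpl20, Mrpl23, Mrpl30, Mrpl35, Mrpl37, Mrpl38 and Mrpl45 of the large subunit, and Mrps2, Mrps9, Mrps10, Mrps11, Mrps14, Mrps18b, Mrps24, Mrps26 and Mrps35 of the small subunit. No member had all tumour libraries below. Neutrophil, erythroid and B cell lists were lower in the tumour libraries than in WT. So was the T and NK cell list, with at most 4.04 CPM in VQ and 0.925 CPM in tVk12653, against at least 48.9 CPM in WT. The monocyte list overlapped through Ly6c2, while 5 of its 6 genes tested had every VQ and every tVk12653 library below every WT library. V and WT also differ from the tumours in transplantation.

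**Figure D3:**
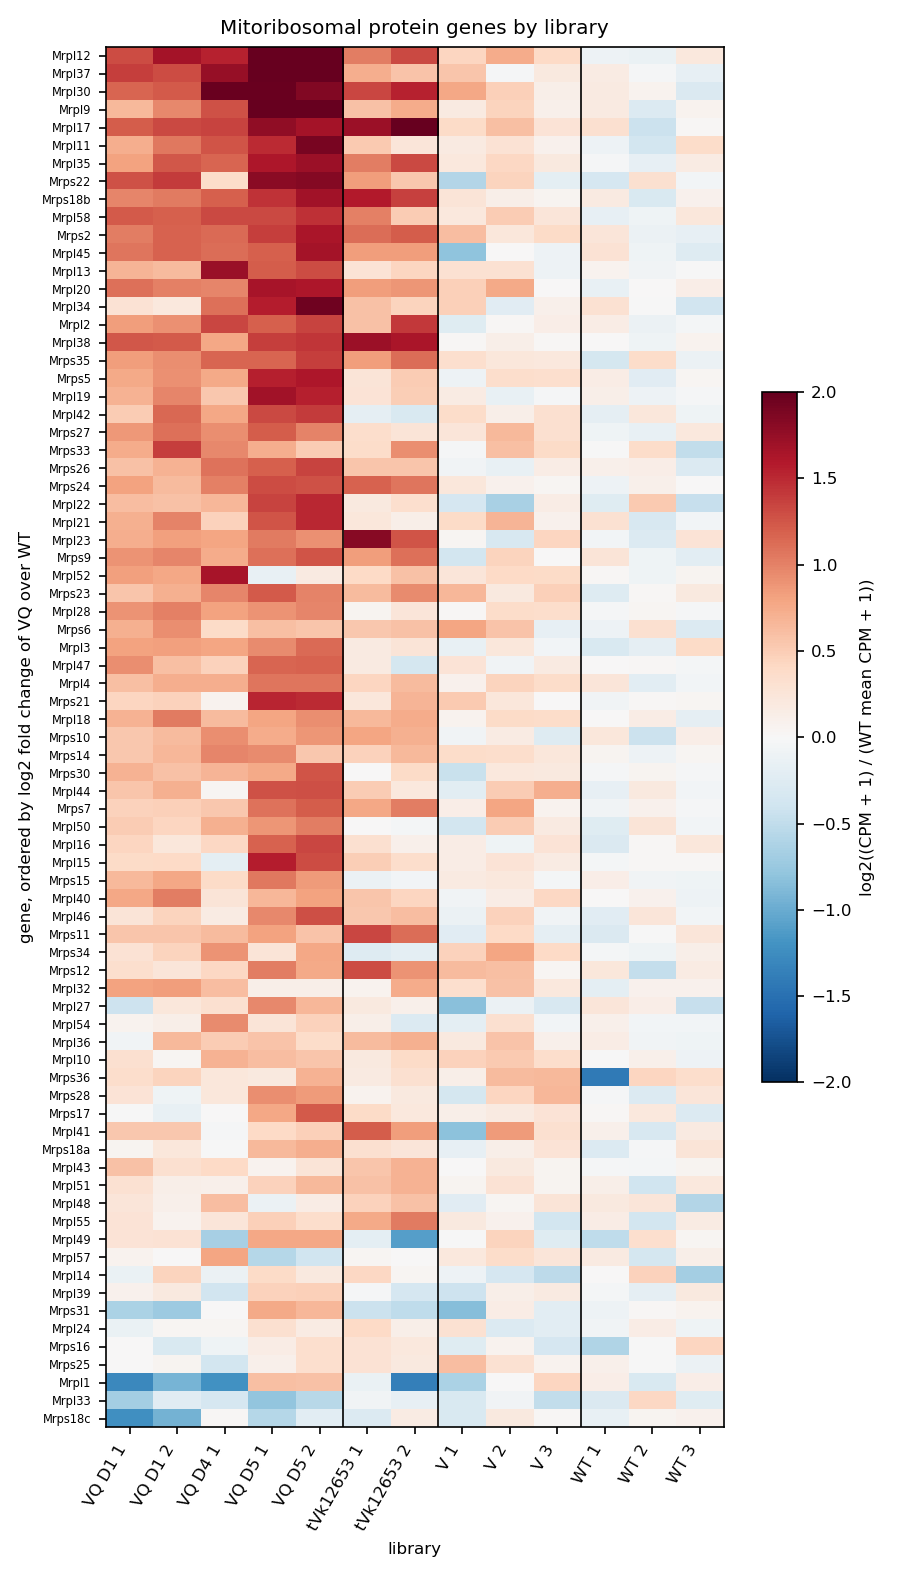
Each row is 1 of the 77 members and each column 1 of the 13 libraries, with VQ, tVk12653, V and WT from left to right. Colour gives the log2 ratio of CPM + 1 to the WT mean CPM + 1 (red above, blue below, capped at 2 in either direction). The D5 columns are the reddest, with 68 and 71 members above all WT libraries against 58 in each D1 and D4 library and 55 and 52 in tVk12653. Over all genes tested the share above all WT libraries was 38.0% to 39.7% in these 7 libraries.

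The direct comparison of VQ with tVk12653 found 5 members higher and 0 lower (edgeR quasi-likelihood test with Benjamini-Hochberg adjustment), where 5.97% of all genes tested were higher and 4.19% lower, so the share of members was close to that of all genes. The median log2 fold change was 0.36 against 0.18 over all genes. Mrpl42, a mitochondria-specific large subunit protein, had 37.7 and 59.5 CPM in line D1, 45.5 CPM in line D4, and 66.8 and 70.5 CPM in line D5, against 22.9 and 21.0 CPM in tVk12653. The 2 tVk12653 libraries lay below all VQ libraries and near the lower end of the WT libraries at 22.9, 31.0 and 24.7 CPM (log2 fold change 1.41 ± 0.26 (SE), adjusted p = 0.0116).

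Mrps15, the counterpart of bacterial S15, had 56.2 and 61.2 CPM in line D1, 46.6 CPM in line D4, and 75.0 and 64.9 CPM in line D5, against 32.6 and 34.0 CPM in tVk12653 (log2 fold change 0.88 ± 0.23 (SE), adjusted p = 0.0403). Mrps34 had 32.3 and 35.8 CPM in line D1, 49.6 CPM in line D4, and 31.5 and 45.2 CPM in line D5, against 21.7 and 22.8 CPM in tVk12653 (log2 fold change 0.93 ± 0.22 (SE), adjusted p = 0.0301). Mrpl37 (1.26 ± 0.30, adjusted p = 0.0301) and Mrpl28, the counterpart of bacterial L28 (0.83 ± 0.19, adjusted p = 0.0258), were the others. None of the 5 overlapped between the groups. The count rests on both tVk12653 libraries, with 0 members called without either or when only VQ and tVk12653 were fitted, 8 without line D1, 10 without line D4, 3 without WT 2 and D1 1, and 20 higher and 5 lower when all libraries were fitted with 1 mean per group. That last fit treats recipients of a VQ line as replicates, so the spread between VQ lines is not in its error. Without line D5, 4 members were higher and 1, Mrpl38, was lower, and the median log2 fold change was 0.099 against 0.082 over all genes.

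Counts on the symbol Myc ran in another order than the members in that tVk12653 stood highest, while both were lowest in WT and next lowest in V. They were 902 and 687 CPM in line D1, 1650.2 CPM in line D4, and 1351 and 1665 CPM in line D5, against 7999.8 and 8200.4 CPM in tVk12653, 307, 430.1 and 364 CPM in V and 51.4, 72.2 and 35.0 CPM in WT. How many reads of the human transgene count on this symbol is not given in the sources used here. tVk12653 had the most Myc RNA and a smaller member sum than D4 or D5, and the relation was not tested.

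Lines D1 and D5 carry the same labelled genotype, and their comparison shows how 2 tumour lines differ. In D1, 24 members were lower and 3 higher than in D5 (edgeR quasi-likelihood test with Benjamini-Hochberg adjustment over 12835 genes), where 21.7% of all genes tested were lower and 20.0% higher. The median log2 fold change was -0.42 against 0.05 over all genes. In 59 members both D1 libraries were below both D5 libraries, which held for 35.9% of all genes tested. Lower members numbered 15 of 50 in the large and 9 of 26 in the small subunit, and 18 of 46 with a bacterial counterpart and 6 of 30 specific to mitochondria.

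Mrpl1 had 8.07 and 10.6 CPM in D1, against 32.6 and 32.2 CPM in D5 (log2 fold change -1.76 ± 0.39 (SE), adjusted p = 0.00224). Mrpl34, the counterpart of bacterial L34, had 14.3 and 13.5 CPM in D1, against 36.0 and 46.8 CPM in D5 (log2 fold change -1.58 ± 0.29 (SE), adjusted p = 0.000528). Both D1 libraries of Mrpl34 lay within the range of the WT libraries. Mrpl9 had 33.4 and 41.5 CPM in D1, against 96.7 and 118 CPM in D5 (log2 fold change -1.51 ± 0.20 (SE), adjusted p = 3.41e-05). Mrpl12 had 58.4 and 75.1 CPM in D1, against 177 and 198 CPM in D5 (log2 fold change -1.48 ± 0.18 (SE), adjusted p = 1.85e-05). For Mrpl9 and Mrpl12 the D1 libraries were between WT and D5. Mrps31, a mitochondria-specific small subunit protein, had 9.96 and 9.23 CPM in D1, against 27.6 and 25.8 CPM in D5 (log2 fold change -1.48 ± 0.30 (SE), adjusted p = 0.00124), and its D1 libraries were below all 3 WT libraries.

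The 3 members that were higher in D1 are all of the large subunit. Mrpl52, a mitochondria-specific protein with the highest level per kilobase of all members, had 89.9 and 87.0 CPM in D1, against 45.0 and 57.0 CPM in D5 (log2 fold change 0.79 ± 0.15 (SE), adjusted p = 0.000873). Its D5 libraries were around the WT level of 51.1, 47.6 and 52.3 CPM, and D4 was highest at 161 CPM. Mrpl32, which the m-AAA protease cleaves before it joins the ribosome, had 25.0 and 25.4 CPM in D1, against 15.1 and 15.1 CPM in D5 (log2 fold change 0.74 ± 0.27 (SE), adjusted p = 0.0414). Its call was lost without any 1 of the 4 libraries. Mrpl57, also known as mL63, had 89.9 and 85.9 CPM in D1, against 57.2 and 64.7 CPM in D5 (log2 fold change 0.53 ± 0.17 (SE), adjusted p = 0.0209), and its D5 libraries were below all 3 WT libraries. This call was lost without D1 1, without D1 2 or without D5 1.

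**Figure D4:**
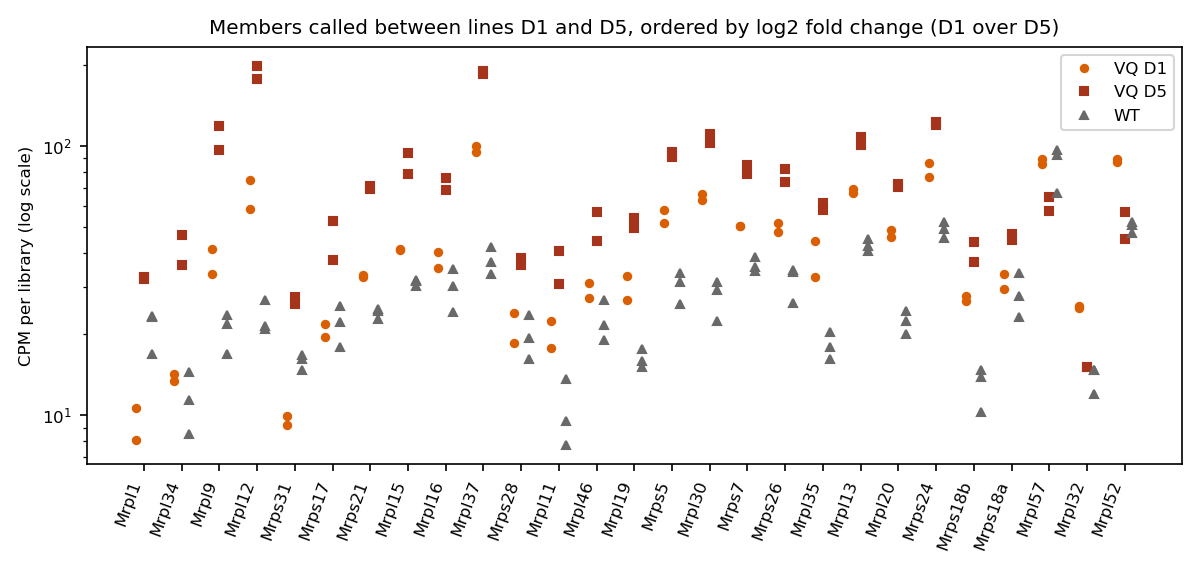
CPM per library on a log axis for the 27 members called between lines D1 and D5, ordered along the horizontal axis by log2 fold change of D1 over D5, with D1 circles, D5 squares and WT triangles. Squares lie above circles for the 24 members from Mrpl1 to Mrps18a and below them for Mrpl57, Mrpl32 and Mrpl52.

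The 27 calls fell to 15 without D1 1, to 17 without D5 2 and to 17 without WT 2 and D1 1. The neutrophil list summed to 1246 and 360 CPM in D1 and 90.4 and 141 CPM in D5. The monocyte list summed to 585 and 710 CPM in D1 and 8.21 and 34.0 CPM in D5. Most of the monocyte sum in D1 was the single gene Ly6c2, at 501 and 644 CPM, against 2.38 and 22.2 CPM in D5. Myc was lower in D1 (-0.93 ± 0.26, adjusted p = 0.0123), and the part of none of these was tested.

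Other genes of mitochondrial translation are set beside the members, first in VQ over WT. Of 5 mitoribosomal proteins with other symbols 3 rose and 0 fell. These were Dap3 (1.19 ± 0.37, adjusted p = 0.0334), a GTP-binding small subunit protein, Ptcd3 (0.99 ± 0.32, adjusted p = 0.0381) and Chchd1 (0.83 ± 0.26, adjusted p = 0.033). Of 28 genes of ribosome assembly and rRNA modification 4 rose (14.3%, against 17.3% of all genes) and 1 fell, with a median of 0.34 against 0.08 over all genes. C1qbp, a matrix chaperone needed for mitochondrial translation, had 213 and 243 CPM in line D1, 248 CPM in line D4, and 474 and 549 CPM in line D5, against 54.2, 58.2 and 58.8 CPM in WT (log2 fold change 2.60 ± 0.30 (SE), adjusted p = 0.000403). Rbfa, a small subunit assembly factor (1.09 ± 0.20, adjusted p = 0.00311), Mtg1, a GTPase of large subunit assembly (1.12 ± 0.28, adjusted p = 0.0143), and the helicase Dhx30 (0.74 ± 0.20, adjusted p = 0.0193) also rose. Mettl15, which methylates the small subunit rRNA, fell (-1.14 ± 0.35, adjusted p = 0.0316).

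Of 15 translation factors 4 rose (26.7%) and 0 fell, namely Lrpprc and Slirp, partners that stabilise mitochondrial mRNA, the elongation factor Gfm1 and the recycling factor Mrrf (log2 fold changes 1.18 ± 0.24, 1.20 ± 0.39, 1.45 ± 0.37 and 1.05 ± 0.34). Of 20 aminoacyl-tRNA synthetase genes 7 rose (35%) and 0 fell, with Vars2 (1.44 ± 0.25) having the smallest adjusted p = 0.00252. Of 14 regulators of mitochondrial DNA expression 3 rose (21.4%, near the share of all genes) and 0 fell. These were the helicase Twnk (1.46 ± 0.25), whose exons overlap those of Mrpl43, the coactivator Pprc1 (0.97 ± 0.20) and the RNA polymerase Polrmt (0.84 ± 0.26). Of the 8 mitochondrially encoded genes in the table ND1 (1.15 ± 0.18) and COX1 (0.79 ± 0.19) rose and 0 fell. Cytosolic ribosomal protein genes rose in 70 of 81, with a median of 1.60.

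**Figure D5:**
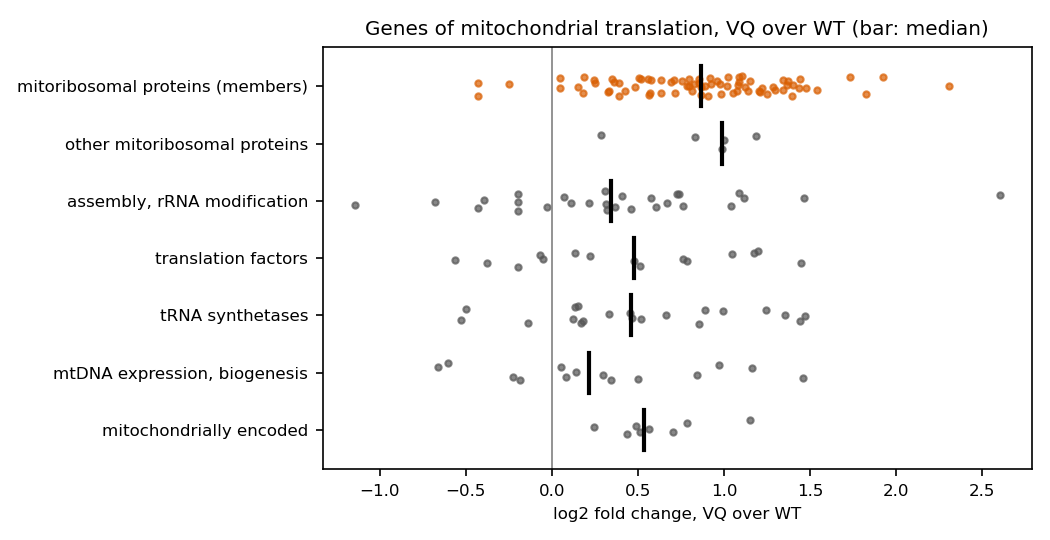
Log2 fold change of VQ over WT (horizontal axis) for each gene of 7 lists of mitochondrial translation (vertical axis), with a bar at each median. The medians are 0.87 for the 77 members, 0.99 for other mitoribosomal proteins, 0.34 for assembly, 0.48 for translation factors, 0.46 for synthetases, 0.22 for regulators and 0.54 for mitochondrially encoded genes.

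In D1 against D5, where 21.7% of all genes were lower and 20.0% higher, the assembly list had 6 of 28 genes lower and 1 higher, and the translation factors 2 of 15 lower and 0 higher. The synthetases had 7 of 20 lower and 0 higher, the regulators 4 of 14 lower and 3 higher, and the mitochondrially encoded genes 1 of 8 lower and 0 higher. Gadd45gip1, a large subunit protein also called mL64, had 32.6 and 34.5 CPM in D1, against 201 and 221 CPM in D5 (log2 fold change -2.65 ± 0.18 (SE), adjusted p = 7.68e-08), and 52.5, 46.4 and 61.4 CPM in WT. Both D1 libraries were below WT and both D5 libraries far above it. Dap3 (-1.31 ± 0.17) and Ptcd3 (-0.98 ± 0.16) were also lower in D1 (adjusted p = 2.88e-05 and 0.000233), so that 3 of the 5 mitoribosomal proteins with other symbols were lower and 0 higher. Gadd45gip1 was chosen after its values were seen.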

How the data were processed

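RNA of sorted mouse bone marrow cells was sequenced after RNeasy Micro extraction and SMARTer Stranded Total RNA-Seq preparation, per the labels. The authors deposited raw read counts per gene symbol for 13 libraries, without normalization. STAR 2.6.1d and build GRCm38.p6 are named in the submitters' processing notes. How reads were counted (tool, annotation, strand, reads with more than 1 alignment) is not given in the sources used here.

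Counts were scaled by trimmed means of M values (TMM) and genes filtered with filterByExpr (minimum count 10, minimum total 15). Groups were compared with the edgeR 4.0.16 quasi-likelihood test (robust) run in R 4.3.3. P-values were adjusted after Benjamini and Hochberg over the 11933 genes, with a threshold of 0.05. The fit held 11 units, with the recipients of each VQ line summed, and the test of D1 against D5 used a fit to the 13 single libraries over 12835 genes. Fold changes are fitted log2 values of the group named before over the group named after, and the SE is the fold change divided by the root of the F statistic. CPM of single libraries uses TMM factors of the 13 libraries. A floor of 3 counts equals 0.326 to 1.48 CPM and covers counting error only. The chi-square per degree of freedom between libraries of a group was 5.23 to 15.6. P-values rest on a spread estimated jointly over all groups, between VQ lines and between single libraries of the other groups. For D1 against D5 this spread is between single libraries. The tVk12653 libraries are recipients of 1 line, so tests of that group do not measure a spread between such lines.

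Same-numbered V and WT libraries deviated together from their group means (r = 0.190, 0.158 and 0.125). These numbers were treated as pairs only in the alternative fits with a replicate block, and the main test of V over WT had no block. In the other group pairs, D4 left out, same-numbered libraries had r of -0.133 to 0.0549. Pairing by number was not shown for these.

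The members, gene lists and the rule for named genes were chosen with earlier results of these data known. Members named were the largest changes that passed in each comparison (8 in VQ over WT and 4 elsewhere), members called against the main direction, the 3 highest and 3 lowest per kilobase, and 12 fixed members. Of each other list up to 4 genes that passed in VQ over WT were named, and genes named beyond this were chosen after their values were seen. The 8 mitochondrially encoded genes are those of 13 found in the table. Promoters and coordinates are from RefSeq. Exon lengths, exon overlaps and named pseudogenes are from GENCODE, with all annotated exons of a gene merged. The script was tested on simulated data.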

Additional observations from a re-analysis of the deposited data

Results flagged for a closer look

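The effect over WT differed between VQ and tVk12653 for 5 members, tested directly with edgeR, and these log2 differences were 1.41 for Mrpl42, 1.26 for Mrpl37, 0.93 for Mrps34, 0.88 for Mrps15 and 0.83 for Mrpl28 (VQ minus tVk12653). They are 6.49% of the members, near the 5.97% of all genes called higher. All 5 calls were lost without either tVk12653 library.

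Between lines D1 and D5, which share their labelled genotype, the members picked out by the rule for named genes differed by -1.76 for Mrpl1, -1.58 for Mrpl34, -1.51 for Mrpl9 and -1.48 for Mrpl12, and in the other direction by 0.79 for Mrpl52, 0.74 for Mrpl32 and 0.53 for Mrpl57 (log2, D1 minus D5). The call of Mrpl32 was lost without any 1 of the 4 libraries, and that of Mrpl57 without D1 1, D1 2 or D5 1. Each line is 1 tumour with 2 recipients, so the difference is between these 2 lines.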

How the results depend on the processing

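In VQ over WT the count of 41 members was within 1.5 times under every alternative except without WT 3, and leaving out 1 library or line gave 27 to 44. DESeq2 gave 41 there and relative log expression factors 38. In tVk12653 over WT the count of 22 became 36 with 1 mean per group over all libraries, 10 without WT 2 and D1 1 (an alternative chosen after seeing the data), and 8 to 12 when 1 library was left out. In V over WT it was 0 under all alternatives run, and leaving out 1 library gave 0 to 0. In VQ over V the count of 32 became 14 when only these groups were fitted and 16 to 36 when 1 library or line was left out. In VQ over tVk12653 the count of 5 became 2 without the low count filter, 0 with only these groups, 25 with 1 mean per group, 3 without WT 2 and D1 1, and 0 to 10 when 1 library or line was left out. In D1 over D5 the count of 27 became 17 without WT 2 and D1 1, and 15 to 18 when 1 library was left out. The cause of these shifts was not tested, apart from the fewer libraries in the fits that leave some out. Of the 25 in VQ over tVk12653 with 1 mean per group, 20 were higher and 5 lower. Fits of all libraries with 1 mean per group, with or without a block, treat recipients of a VQ line as replicates. The spread between VQ lines is not in their error.

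With the replicate block the count was 0 in V over WT, both with V and WT fitted by themselves and with all libraries, so the pairing changed no call among the members, while over all genes the calls numbered 138 higher and 341 lower with V and WT by themselves, against 1 and 1 without the block. In all libraries with the block the count of members was 54 in VQ over WT and 32 in tVk12653 over WT, all higher. It was 44 in VQ over V (43 higher and 1, Mrps25, lower) and 26 in VQ over tVk12653 (21 higher and 5 lower). In D1 over D5 it was 26 (3 higher and 23 lower). Pairing by number was not shown for these comparisons. No named member changed direction while called, and the median log2 fold change of the members kept its sign in each comparison and alternative. The members of lowest level gave the fewest calls, and line D4 is a single library.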

Other observations

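A pair of genes of the other lists had almost no counts in a single line, and both were chosen after their values were seen. How reads were counted is not given, so less RNA and a loss of counted reads cannot be told apart. Guf1, the counterpart of the bacterial elongation factor LepA, had 1.08 and 0.11 CPM in D1 (4 and 1 counts), against 52.5 and 58.5 CPM in D5 and 17.8 CPM in D4, and it had 26.9 to 41.8 CPM in WT. ND3, a complex I gene encoded in mitochondrial DNA, had 1 and 0 counts in the tVk12653 libraries, while VQ had 14.5 to 25.2 CPM and WT 12.9 to 18.2 CPM. The other 7 mitochondrially encoded genes in the table were not near 0 in tVk12653, with ND1 at 3326 and 4199 CPM, against 2006, 1735 and 2308 CPM in WT.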
